A study of Mus musculus with 9 samples.

Results

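The 8 acyl-CoA thioesterases described here are Acot1, Acot2, Acot7, Acot8, Acot9, Acot11, Acot13 and Them4, taken by symbol from a table of 28965 genes measured in 3T3-L1, a murine cell line that can be turned into adipocytes. All libraries came from wild type cells, by their labels, that had reached confluence and then spent 24 h in an adipogenic cocktail of 0.1 µg/mL insulin, 30 µg/mL isobutylmethylxanthine and 0.1 µg/mL dexamethasone. The OA_T0 group also received 100 µM albumin-bound oleic acid together with 5 µM T0901317, which activates the nuclear receptors named liver X receptors (LXR). The OA group received the cocktail with albumin-bound oleic acid at 100 µM. The MDI group received the cocktail with the albumin vehicle. Each group had 3 libraries of poly(A) RNA, and the agonist was never given without oleic acid. Nothing in the labels says whether the libraries of a group came from separate cultures, so p-values measure the spread between these libraries, which may be technical.

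Acyl-CoA thioesterases cut fatty acyl-CoA into a free fatty acid and coenzyme A. They work against the acyl-CoA synthetases, which make acyl-CoA from the same substrates, and so set how much activated fatty acid stands ready for oxidation, for lipid synthesis and for lipid signals. The family is spread over compartments: Acot2, Acot9, Acot13 and Them4 act in or at mitochondria, Acot1, Acot7 and Acot11 largely in the cytosol, and Acot8 in peroxisomes. Several members, Acot1 and Acot2 among them, are known from rodent liver and heart as genes induced through the fatty acid receptor PPAR alpha.

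Estimated depth was 18 to 59.9 M fragments per library, and a floor of 3 fragments, which covers counting error only, lay at 1.35 to 4.62 deposited units. Markers of precursor cells were present, with 9 of 9 above the filter on low values, among them Pdgfra and Dlk1, and their summed level was 173690 to 200300 in OA_T0, 204420 to 223330 in OA and 192730 to 204410 in MDI. Pdgfra itself averaged 11816 ± 1667 in OA_T0, 18401 ± 437 in OA and 13276 ± 1212 in MDI, higher in OA against MDI (limma adjusted p = 0.00406) and lower in OA_T0 against OA (limma adjusted p = 0.000153). Dlk1 averaged 43502 in OA_T0 and 35777 in OA, higher in OA_T0 against OA (limma adjusted p = 0.0444), and did not pass in OA against MDI. Across the 9, 2 rose, 0 fell and 7 did not pass in OA against MDI. In OA_T0 against OA 1 rose, 3 fell and 5 did not pass. Over all tested genes 3.43% rose and 3.36% fell in OA against MDI, and 8.27% and 6.84% in OA_T0 against OA. Of 8 adipocyte markers in the table, Adipoq, Plin1, Cidec and Slc2a4 averaged under 10 units, and the summed level of the list was 10577 to 11398 in OA_T0, 12324 to 13306 in OA and 6872.5 to 7537 in MDI. Of the 4 tested, 2 rose (Fabp4 and Lpl) and 0 fell in OA against MDI. In OA_T0 against OA 1 rose (Pparg) and 1 fell (Fabp4). Fabp4 averaged 661 ± 72.9 in OA_T0, 2024 ± 312 in OA and 374 ± 81.4 in MDI. Lpl, most of the sum, averaged 8651 in OA_T0, 9358 in OA and 5424 in MDI. Marker calls were not refitted with libraries left out. The leukocyte, endothelial and epithelial list summed to 23.8 to 45.2 in OA_T0, 22.1 to 29.1 in OA and 21.4 to 31.6 in MDI, with Adgre1 at 0. The part of the precursor and adipocyte markers in the results below was not tested, and in bulk RNA a change in the number of cells of one kind and a change in RNA per cell cannot be told apart. Of the summed values, 3.06% in OA_T0 replicate 3 and 0.649% in OA replicate 1 came from a ribosomal RNA gene, against 4.4% to 5.96% in the 7 others, and calls and counts that change without those 2 libraries are named beside the result. Angptl4, a PPAR target, averaged 949 ± 43.9 in OA_T0, 12291 ± 1310 in OA and 1014 ± 106 in MDI, and Abca1, an LXR target, 7341 ± 382 in OA_T0 and 1101 ± 94.3 in OA (SD, n = 3 each).

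With oleic acid (OA against MDI) Acot7 rose while Acot2 and Acot9 fell. Under the alternative settings described below, Acot2 passed there in 11 of 20, Acot9 in 14 of 20 and Acot7 in 16 of 19. The sum of Acot2 and its close copy Acot1 did not pass in that comparison (limma adjusted p = 0.146). With the agonist added to oleic acid (OA_T0 against OA) Acot2 and Acot9 rose and Acot7 fell, passing in 20 of 20, 19 of 20 and 16 of 19 alternatives. No member passed between OA_T0 and MDI. The differences were small, from 1.20-fold to 1.55-fold.

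By level per length, which allows genes to be compared, Acot9 and Acot7 led the family. Averaged over the 9 libraries, Acot9 stood at 1042 ± 110.2 units per kb of exon and Acot7 at 875 ± 109.9, and their ranges over libraries overlapped. Acot2 followed at 323 ± 67.6 and Acot13 at 270.1 ± 30.9, again with overlapping ranges. Acot1 (73.3 ± 7.81), Acot8 (63.9 ± 6.23) and Them4 (59.98 ± 8.34) formed a group whose neighbours overlapped. Acot11 was lowest at 5.67 ± 1.502 units per kb, 10.6-fold below Them4. These SDs span all groups. The gaps between Acot7 and Acot2, between Acot13 and Acot1 and between Them4 and Acot11 were the 3 places in the order where no library of one gene reached the next.

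Summed over the 8 members, the level per length was 2837 ± 112 units per kb in OA_T0, 2620.5 ± 129.9 in OA and 2682 ± 144 in MDI (SD, n = 3 each). Acot9 made up 39.4% of it in OA_T0, 34.8% in OA and 40.9% in MDI, and Acot7 made up 29.0% in OA_T0, 38.2% in OA and 29.8% in MDI. Acot7 was the most abundant member per length in OA, and Acot9 in OA_T0 and in MDI.

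**Figure D1:**
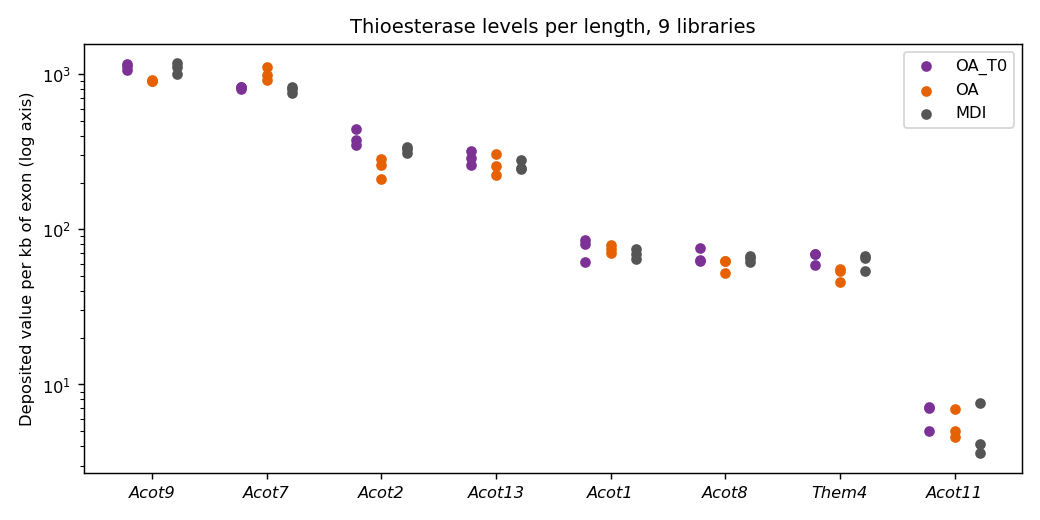
Deposited value per kb of exon (log axis) of each thioesterase, with 1 point per library and groups OA_T0, OA and MDI from left to right within each gene. Genes are ordered by their mean over the 9 libraries, from Acot9 at 1042 to Acot11 at 5.67 units per kb.

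Among the mitochondrial members, Acot2, a matrix thioesterase for long-chain acyl-CoA, varied most with treatment. Its deposited values were 978, 773 and 823 in the OA_T0 libraries, 467, 622 and 575 in the OA libraries and 681, 719 and 747 in the MDI libraries. All 3 OA libraries lay below all 6 others, and all 3 OA_T0 libraries lay above the rest. In OA against MDI the log2 fold change was -0.38 (SE 0.11), with adjusted p = 0.0467 by limma over all 15002 genes tested. That call was lost without OA replicate 1 (adjusted p = 0.206), OA replicate 3 (0.0723), MDI replicate 1 (0.0911), MDI replicate 2 (0.158) or MDI replicate 3 (0.0971), without OA_T0 replicate 3 and OA replicate 1 together (0.188) and with no filter on low values (0.158), in a range of 0.0244 to 0.206 over all alternatives. In OA_T0 against OA it was 1.55-fold higher (log2 fold change 0.63, SE 0.11, limma adjusted p = 0.0011), and this call held under 20 of 20 alternatives. Between OA_T0 and MDI the log2 fold change was 0.26 (SE 0.11), at adjusted p = 0.221 by limma, although the libraries did not overlap.

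Acot2 and Acot1 lie next to each other on chromosome 12 (GRCm38) and are close copies, which bears on both readings. In the GENCODE M21 transcripts their coding sequences were 95.3% identical over 1236 aligned bases. Acot2 opens with 123 coding bases that Acot1 lacks, in which its targeting to mitochondria is encoded. Whether untranslated bases of Acot1 match them was not tested. The stretch is shown because the coding sequence of Acot1 lacks it, as coding bases 1 to 123:
Acot2: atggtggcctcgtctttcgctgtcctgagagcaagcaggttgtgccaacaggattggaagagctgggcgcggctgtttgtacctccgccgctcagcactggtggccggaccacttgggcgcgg
The longest run without a difference was 273 bases, from base 1010 of the Acot2 coding sequence. A fragment inside it cannot be given to one gene over the other:
Acot2 and Acot1: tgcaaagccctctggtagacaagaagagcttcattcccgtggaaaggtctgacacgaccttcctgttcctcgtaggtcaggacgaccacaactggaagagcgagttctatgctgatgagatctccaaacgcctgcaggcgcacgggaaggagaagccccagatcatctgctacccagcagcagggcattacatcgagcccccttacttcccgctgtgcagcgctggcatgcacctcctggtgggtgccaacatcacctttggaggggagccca
The 90 bases just before that run held 14 differences, the most of any stretch of that length, and are shown with the differing bases in capitals, from coding base 920 of Acot2 and 797 of Acot1:
Acot2: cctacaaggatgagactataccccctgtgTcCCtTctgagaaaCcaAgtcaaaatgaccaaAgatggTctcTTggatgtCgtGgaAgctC
Acot1: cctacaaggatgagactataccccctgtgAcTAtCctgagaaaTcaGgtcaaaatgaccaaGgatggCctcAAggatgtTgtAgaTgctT
Of all 50-base words in the Acot2 coding sequence, 40.2% also occurred in that of Acot1.

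Low values of a library were spaced by a constant step, read here as 1 fragment. Neither Acot1 nor Acot2 was a whole number of steps in any of the 9 libraries, within 0.05 of a step. Their sum was whole in 9 of 9 libraries, with 670.0 to 2115.0 steps. Them4 and Acot13, by contrast, were whole on their own in 9 of 9 libraries. The deposited value of each gene is thus an estimate that includes parts of fragments, and their sum is the quantity that counts whole ones.

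Acot1, the cytosolic partner, had 337, 315 and 241 in OA_T0, 308, 277 and 292 in OA and 271, 251 and 292 in MDI. The groups overlapped in every pairing, and limma gave adjusted p = 0.679 for OA against MDI and adjusted p = 0.961 for OA_T0 against OA. The log2 ratio of Acot2 to Acot1 within each library was 1.54, 1.30 and 1.77 in OA_T0, 0.60, 1.17 and 0.98 in OA, and 1.33, 1.52 and 1.35 in MDI. The OA libraries lay below the others without overlap, at exact two-sided permutation p = 0.1 against MDI and again p = 0.1 for OA_T0 against OA, the smallest value that 3 against 3 libraries can give. Between OA_T0 and MDI the ratios overlapped (exact permutation p = 0.6).

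The sum of both genes was 1315, 1088 and 1065 in OA_T0, 775, 899 and 867 in OA, and 952, 970.5 and 1039 in MDI. The OA libraries lay below all others and the OA_T0 libraries above all others. The sum rose 1.36-fold in OA_T0 against OA (log2 fold change 0.44, SE 0.09, limma adjusted p = 0.00301). In OA against MDI the log2 fold change was -0.22 (SE 0.09) at adjusted p = 0.146 by limma, so the pair did not pass.

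**Figure D2:**
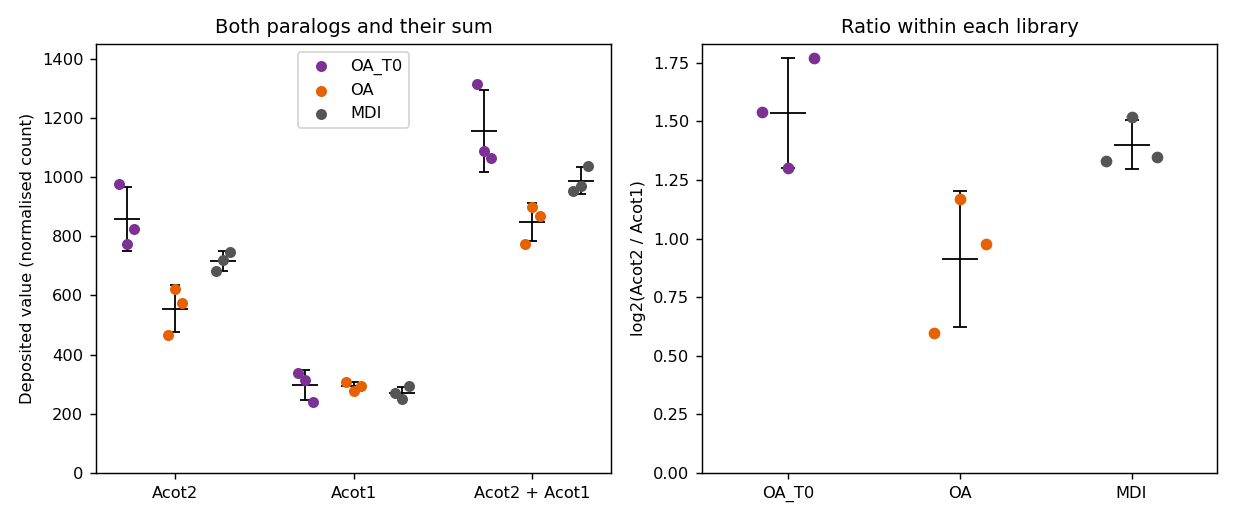
Left, deposited values (normalised counts) of Acot2, of Acot1 and of their sum in each library, with bars for mean ± SD of 3 libraries; right, the log2 ratio of Acot2 to Acot1 in each library. The summed values are 1065 to 1315 in OA_T0, 775 to 899 in OA and 952 to 1039 in MDI, and the ratios of OA lie below those of both other groups.

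Acot9, another mitochondrial thioesterase, moved in the same directions as Acot2. It had 2559, 2406 and 2648 units in OA_T0, 2096, 2053 and 2069 in OA, and 2289, 2667 and 2532 in MDI. The OA libraries were the 3 lowest and lay close together, while OA_T0 and MDI overlapped. It fell in OA against MDI by 0.27 on the log2 scale (SE 0.06, limma adjusted p = 0.0215). The call was lost without OA replicate 1 (0.0648), OA replicate 2 (0.0632), OA replicate 3 (0.0504), MDI replicate 2 (0.138) or MDI replicate 3 (0.0516) and with no filter on low values (0.0672), in a range of 0.0101 to 0.138 over all alternatives. It rose in OA_T0 against OA by a log2 fold change of 0.29 (SE 0.06, limma adjusted p = 0.00683), which passed in 19 of 20 alternatives. The exception left out OA_T0 replicate 3 and OA replicate 1 together (adjusted p = 0.0728, in a range of 0.00374 to 0.0728).

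Acot9 also has a close copy, Acot10, a gene on chromosome 15 that is no member of the list studied but was on a list of other thioesterases. Their coding sequences, 1317 bases each, were 97.2% identical. Acot10 averaged 252 ± 11.5 in OA_T0, 201 ± 19.0 in OA and 270 ± 23.3 in MDI. It fell in OA against MDI by 0.43 on the log2 scale (limma adjusted p = 0.0344), in a range of adjusted p from 0.0248 to 0.148 over alternatives, and lost that call without OA replicate 1, OA replicate 3, OA_T0 replicate 1, MDI replicate 1 or MDI replicate 2, without OA_T0 replicate 3 and OA replicate 1 together (0.057), and with no filter on low values (0.0712). The sum of Acot9 and Acot10 was a whole number of steps in 8 of 9 libraries, and each gene alone in 1 of 9. Summed, they fell in OA against MDI by 0.28 on the log2 scale (adjusted p = 0.0126) and rose in OA_T0 against OA by a log2 fold change of 0.29 (adjusted p = 0.00468), both by limma.

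The other mitochondrial members did not pass. Them4, which also binds the kinase AKT, had 280.4, 236 and 279 units in OA_T0, 218, 223 and 185 in OA, and 217, 272 and 263 in MDI. All OA_T0 libraries lay above all OA libraries, with a log2 fold change of 0.35 (SE 0.12, limma adjusted p = 0.0749). That value passed without OA_T0 replicate 2 (0.0425), in a range of 0.0425 to 0.235 over alternatives. OA and MDI overlapped for Them4, with a log2 fold change of -0.26 (SE 0.12, limma adjusted p = 0.241). Acot13, which partners a phosphatidylcholine transfer protein, averaged 216 ± 22.4 in OA_T0, 196 ± 30.3 in OA and 192 ± 14.1 in MDI, and its groups overlapped in every pairing.

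In the cytosol, Acot7 went the other way. This enzyme, abundant in brain, is known to cut arachidonoyl-CoA among other long-chain substrates. It had 1769, 1765 and 1715 units in OA_T0, 2089, 1940.1 and 2355 in OA, and 1606, 1718 and 1767 in MDI. The OA libraries were the 3 highest, and OA_T0 and MDI overlapped. It rose in OA against MDI by a log2 fold change of 0.32 (SE 0.07, limma adjusted p = 0.0126), a call lost without MDI replicate 1 (0.0601) or MDI replicate 2 (0.0551) and with no filter on low values (0.0545), in a range of 0.00478 to 0.0601. It fell in OA_T0 against OA by 0.28 on the log2 scale (SE 0.07, limma adjusted p = 0.0156). That call on the agonist was lost without OA_T0 replicate 1 (0.0565), without OA_T0 replicate 3 and OA replicate 1 together (0.0956) and with no filter on low values (0.0504), in a range of 0.00439 to 0.0956.

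Acot11, a thioesterase with a lipid-binding START domain that is known from brown fat, was close to the limit of what these libraries can compare. It had 42.4, 30.2 and 43.1 units in OA_T0, 27.96, 30.1 and 42.1 in OA, and 25.2, 21.8 and 46.2 in MDI, resting on 20 to 56 estimated fragments per library. The groups overlapped in every pairing, and the SE of each log2 fold change was 0.31. Acot8, the peroxisomal member, averaged 135 ± 14.95 in OA_T0, 118 ± 11.8 in OA and 130 ± 6.01 in MDI. Its OA_T0 libraries lay above its OA libraries, at a log2 fold change of 0.19 (SE 0.14, limma adjusted p = 0.394). The gap was narrow, between 125.7 in OA_T0 replicate 2 and 125.1 in OA replicate 2. An exon of Acot8 overlaps an exon of Snx21 on the opposite strand by 246 bases in GENCODE M21, and whether the counting used strand is not given in the sources used here. Acot8 was a whole number of steps in 1 of 9 libraries.

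**Figure D3:**
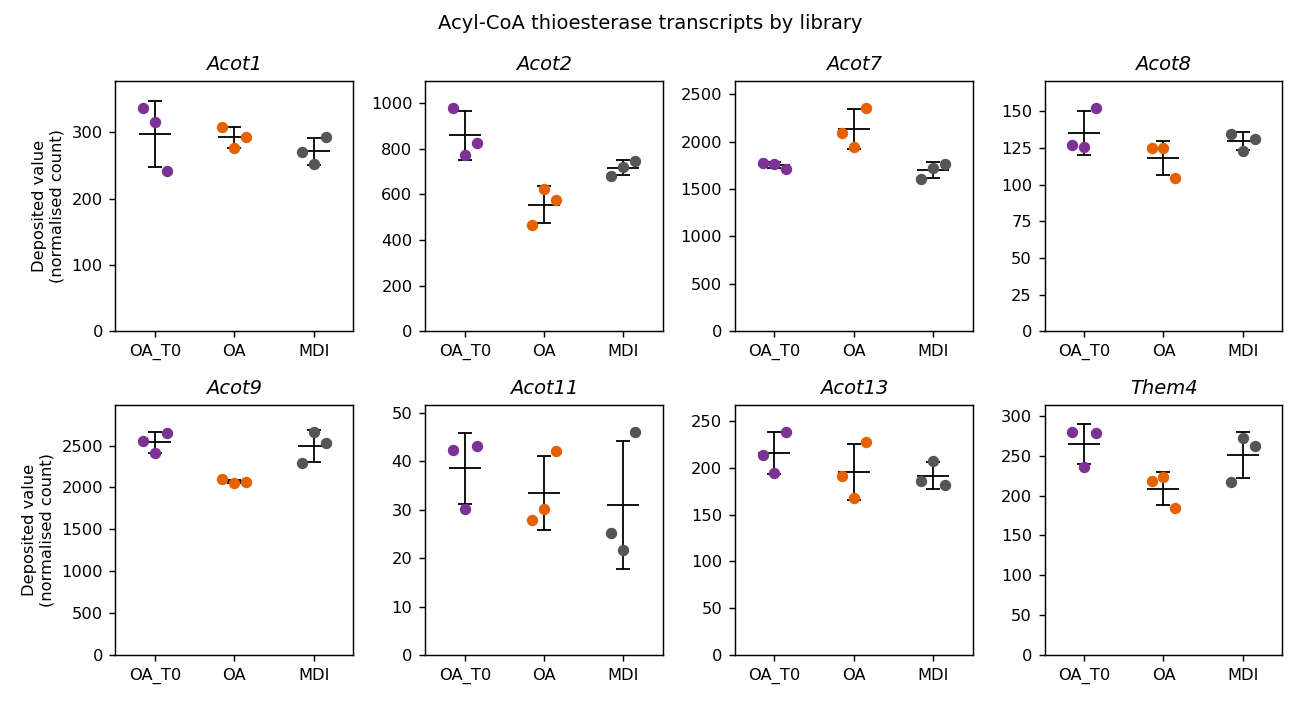
Deposited value (normalised count) of each member in each library, by group, with bars for the mean ± SD of 3 libraries; every axis starts at 0. Acot2 and Acot9 are lowest in OA and Acot7 is highest in OA, while Acot1, Acot11 and Acot13 overlap between all groups.

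In OA against MDI 1 of 8 members rose and 2 fell, where 3.43% of all tested genes rose and 3.36% fell (6.79% in all). The libraries of the groups did not overlap for 3 of 8 members, against 26.1% of all tested genes. In OA_T0 against OA 2 of 8 rose and 1 fell, against 8.27% and 6.84% of all tested genes (15.1% in all), and 5 of 8 did not overlap, against 32.1%. In OA_T0 against MDI limma called 0 of 8, where 1.25% of all tested genes rose and 1.36% fell (2.61% in all). Of the 8, 1 had an unadjusted limma p under 0.05, a looser threshold at which the share of all tested genes was not counted. There 1 of 8 did not overlap, against 23.5% of all tested genes. The median log2 fold change of the 8 was -0.06 in OA against MDI, 0.20 in OA_T0 against OA and 0.10 in OA_T0 against MDI, beside medians of 0.01, -0.002 and 0.02 over all tested genes. The OA libraries enter both OA against MDI and OA_T0 against OA, so the opposite signs share those measurements.

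**Figure D4:**
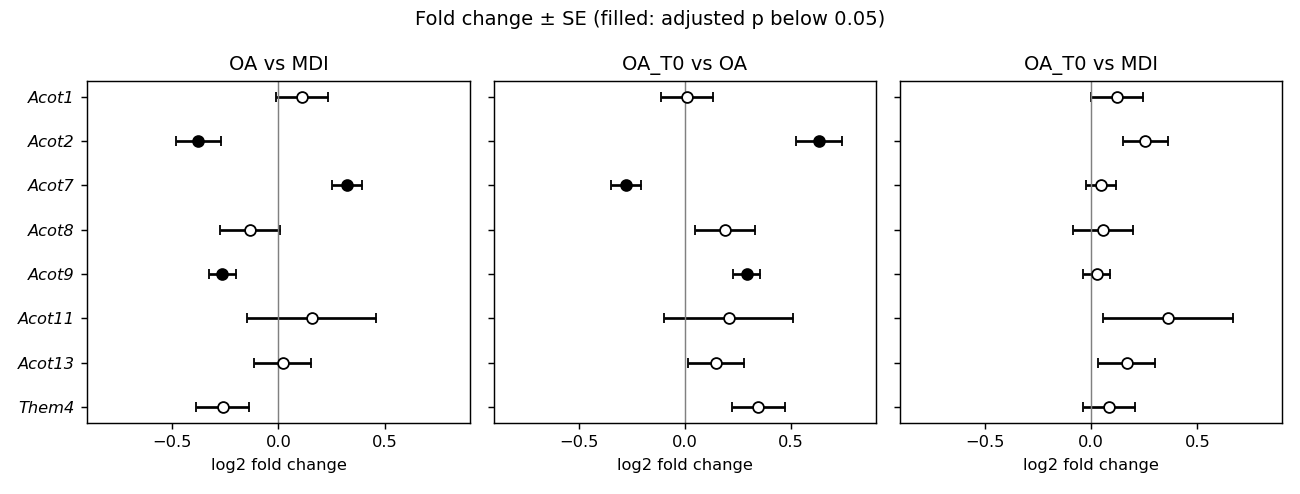
Log2 fold change of each member with its SE (bars) in OA vs MDI, OA_T0 vs OA and OA_T0 vs MDI, with filled points for adjusted p below 0.05 by limma. Filled points are Acot2, Acot7 and Acot9 in the first and second panels, with opposite signs, and none in the third.

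Profiles were compared by the root mean square difference of centred log2 values over the 9 libraries, and the median gene stood at 0.327 from Acot2, 0.212 from Acot7 and 0.204 from Acot9. Nearest to Acot2 were Zfp593 (0.0851), Siah2 (0.0952), a ubiquitin ligase, and Odc1 (0.0970), ornithine decarboxylase of polyamine synthesis. Nearest to Acot7 were Fam162a (0.0314), Igfbp7 (0.0326), a secreted binding protein, and Etfa (0.0426), a subunit of the flavoprotein that takes electrons from acyl-CoA dehydrogenases. Nearest to Acot9 were Eif3c (0.0356), a translation initiation factor, Gtpbp4 (0.0376), which acts in ribosome assembly, and Ankrd50 (0.0385). Neighbours were picked for closeness over these same libraries, so their fold changes follow those of the member by construction. As examples, Etfa rose in OA against MDI by a log2 fold change of 0.36 and fell in OA_T0 against OA by 0.29, and Odc1 had -0.32 and 0.64.

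RefSeq promoters (GRCm38.p6) were matched for 7 of 8 members, all but Acot13. The 250 bases before the start are shown for the 3 members that passed, with CCAAT boxes on either strand in capitals:
Acot2, chr12:83987611-83987860, plus strand: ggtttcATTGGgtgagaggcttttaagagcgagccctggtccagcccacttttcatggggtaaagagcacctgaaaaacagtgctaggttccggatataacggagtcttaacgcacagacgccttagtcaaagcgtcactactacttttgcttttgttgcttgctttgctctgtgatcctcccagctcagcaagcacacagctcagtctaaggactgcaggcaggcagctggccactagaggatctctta
Acot9, chrX:155262193-155262442, plus strand: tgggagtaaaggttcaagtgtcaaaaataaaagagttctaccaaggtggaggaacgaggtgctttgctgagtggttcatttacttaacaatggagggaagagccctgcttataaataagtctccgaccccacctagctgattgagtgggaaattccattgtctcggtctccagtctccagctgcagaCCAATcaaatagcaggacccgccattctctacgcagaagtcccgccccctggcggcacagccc
Acot7, chr4:152185358-152185607, plus strand: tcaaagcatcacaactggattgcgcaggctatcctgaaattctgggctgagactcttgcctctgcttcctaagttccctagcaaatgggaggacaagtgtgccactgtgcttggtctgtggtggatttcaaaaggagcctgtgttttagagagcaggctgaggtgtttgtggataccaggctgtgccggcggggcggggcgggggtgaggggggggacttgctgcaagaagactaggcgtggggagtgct
Neither strand of any matched window held AGGTCA, the hexamer that nuclear receptors bind, which 14% of all 32851 promoter windows of that length held. Direct repeats of AGGTCA spaced by 1 base (DR1), as bound by PPAR, were found in 0.0335% of all windows, and those spaced by 4 bases (DR4), as bound by LXR, in 0.0152%. TGATGNAA, the element of C/EBP and ATF factors, was absent too (3.45% of all windows). CCAAT, found in 33.8% of all windows, occurred in Acot2, Acot9, Acot1, Acot8 and Acot11 and not in Acot7 or Them4. These are matches of letters in these windows only.

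The remaining thioesterases gave a wider view. Of 18 genes on that list, which also held palmitoyl-protein thioesterases and related hydrolases, 15 were in the table and 10 were tested. In OA against MDI 1 rose, Ppt2, a lysosomal thioesterase, at 621 ± 14.5 in OA and 508 ± 25.8 in MDI (limma adjusted p = 0.0373), and 1 fell, Acot10. Over all tested genes 3.43% rose and 3.36% fell. The Ppt2 call was lost without any one of the OA or MDI libraries, without OA_T0 replicate 3 and OA replicate 1 together, with no filter on low values and with libraries scaled to equal totals. In OA_T0 against OA limma called 0 of 10, where it called 15.1% of all tested genes. It called 1 higher without OA replicate 3, and 1 lower without OA_T0 replicate 2, with equal totals or with quantile normalisation. In OA_T0 against MDI it called 0 of 10, where it called 2.61% of all tested genes. An unadjusted limma p under 0.05 was held by 5 in OA_T0 against OA and 1 in OA_T0 against MDI. At that looser threshold the share of all tested genes was not counted. Acot4, a neighbour of Acot1 and Acot2, was listed at 0 in all 9 libraries, and Acot6 and Acot12 averaged under 10 units. Ppt1, the other palmitoyl-protein thioesterase, averaged 1226 ± 54.8 in OA_T0, 1327 ± 34.6 in OA and 1187 ± 35.1 in MDI, and did not pass. Neither did Them6, Lypla1, Lypla2, Abhd10, Abhd17a, Abhd17b and Abhd17c in any of the 3 comparisons, while Baat averaged under 10 units and Olah was listed at 0.

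Of 12 tested synthetases, which oppose the thioesterases, 1 rose in OA against MDI, Acsbg1, an acyl-CoA synthetase, at 188 ± 24.7 in OA and 34.0 ± 4.51 in MDI (limma adjusted p = 2.02e-06). That count was 2 on leaving out replicate 2 or 3 of OA_T0, or replicate 3 of OA or of MDI, and also without OA_T0 replicate 3 and OA replicate 1 together. It was 2 as well with equal totals, with quantile normalisation and in a fit of the 2 groups alone. In the main fit 0 fell there, but 1 fell without replicate 3 of OA or of OA_T0, with equal totals or with quantile normalisation. In OA_T0 against OA Acsl3 rose, at 2607 ± 138 in OA_T0 and 1136 ± 78.9 in OA, Aacs, which activates acetoacetate, rose, and Acsbg1 fell, at 36.9 ± 5.27 in OA_T0 (limma adjusted p = 1.85e-06). Over all tested genes 3.43% rose and 3.36% fell in OA against MDI, and 8.27% rose and 6.84% fell in OA_T0 against OA. In OA_T0 against MDI 2 synthetases rose, Acsl3 and Aacs, and 0 fell, against 1.25% and 1.36% of all tested genes. Of these only 1 rose without MDI replicate 1 or with no filter on low values.

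Of 18 tested genes of mitochondrial beta-oxidation, 9 rose and 0 fell in OA against MDI (median log2 fold change 0.33), and 1 rose and 8 fell in OA_T0 against OA (median -0.24). The shares of all tested genes that rose and fell were 3.43% and 3.36% in the first comparison and 8.27% and 6.84% in the second. Acadl, long-chain acyl-CoA dehydrogenase, stood at 1582 ± 12.04 in OA_T0, 3002 ± 84.9 in OA and 1519 ± 56.1 in MDI, and Acaa2, the thiolase, at 910.05 ± 79.98 in OA_T0, 2225 ± 142 in OA and 903 ± 72.8 in MDI. The member that rose with the agonist was Echs1, and its call was lost without OA replicate 1, alone or together with OA_T0 replicate 3. In the carnitine shuttle 4 of 7 rose in OA against MDI and 4 fell in OA_T0 against OA, with Cpt1a, the entry enzyme, at log2 fold changes of 2.18 and -2.57, and Slc25a20, the carrier, at 0.78 and -0.90. In OA against MDI 14 of the 18 beta-oxidation genes had a positive log2 fold change, as did Acot7, and in OA_T0 against OA 13 of 18 had a negative one, as did Acot7; Acot2 and Acot9 had the other sign in each. In OA_T0 against MDI, Cpt1a was the 1 carnitine gene that fell and Echs1 the 1 mitochondrial beta-oxidation gene that rose. There 1.25% of all tested genes rose and 1.36% fell. The Cpt1a call was lost without OA_T0 replicate 1, and that of Echs1 without OA_T0 replicate 1 or 2, OA replicate 1, or MDI replicate 1 or 2; both were lost with no filter on low values.

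Ech1, an isomerase of beta-oxidation found in peroxisomes, where Acot8 acts, and in mitochondria, averaged 1041 ± 58.5 in OA_T0, 1980.5 ± 195 in OA and 892 ± 107 in MDI. It rose in OA against MDI by a log2 fold change of 1.15 (limma adjusted p = 1.56e-06) and fell in OA_T0 against OA by 0.92 on the log2 scale (limma adjusted p = 7.81e-06). Among 17 genes of acyl-CoA binding and coenzyme A turnover, 3 rose and 1 fell in OA against MDI. The shares of all tested genes were 3.43% and 3.36%. Dbi, which carries acyl-CoA in the cytosol, rose (2168 ± 134 in OA, 1486 ± 109 in MDI), as did Slc25a42, the mitochondrial carrier of coenzyme A (388 ± 29.8 in OA, 211 ± 8.09 in MDI). Pank1, which starts coenzyme A synthesis, fell (191 ± 3.30 in OA, 250.3 ± 21.96 in MDI), a call lost without any one OA library, MDI replicate 2, MDI replicate 3 or OA_T0 replicate 1, without OA_T0 replicate 3 and OA replicate 1 together, with no filter on low values and in a fit of the 2 groups alone. In OA_T0 against OA 2 of the 17 rose, Pank1 and Ppcdc, and 2 fell, Slc25a42 and Acbd5, against 8.27% and 6.84% of all tested genes. Leaving out replicate 1 or 3 of OA_T0, or replicate 1 or 2 of OA, made the higher count 1. Leaving out replicate 1 of either group made the lower count 1. Without OA_T0 replicate 3 and OA replicate 1 together both counts were 1.

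**Figure D5:**
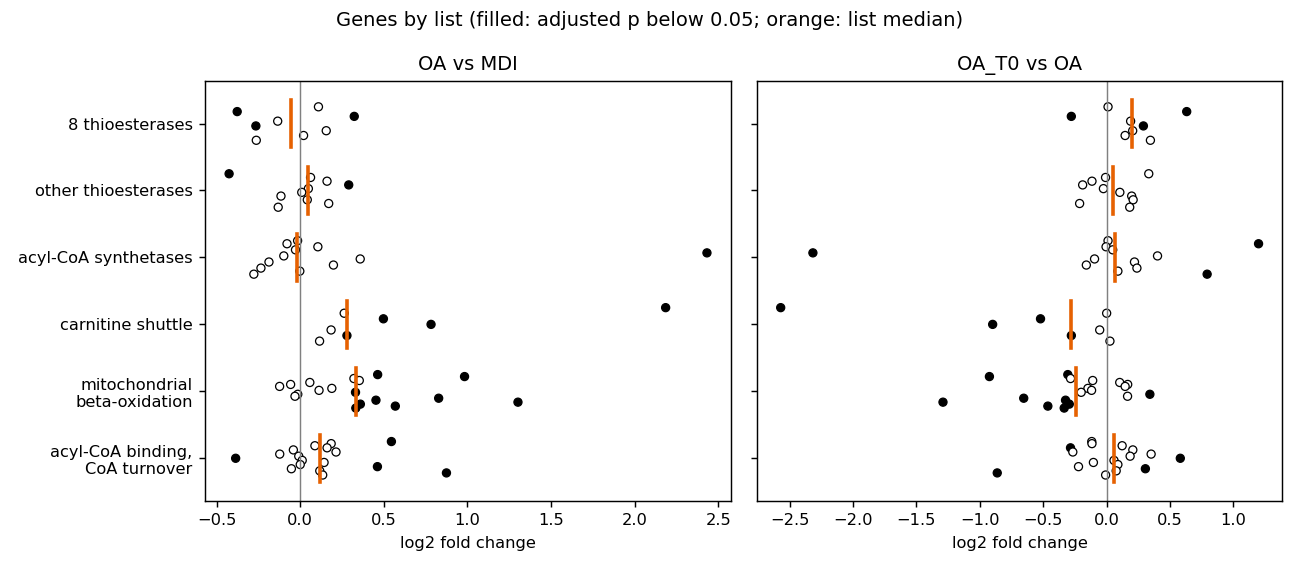
Log2 fold change of each tested gene (1 point per gene) in 6 lists, for OA vs MDI on the left and OA_T0 vs OA on the right, with filled points for adjusted p below 0.05 by limma and an orange line at each list's median. No thioesterase exceeds 0.63 in size (Acot2, right), while Cpt1a reaches 2.18 and Acsbg1 2.43 on the left.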

How the data were processed

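The deposited table, which the authors named as normalised counts, gave 1 value per gene and library. The deposited values were a signal that was not whole and lay on steps of 1 size per library. Per the submitters' processing notes DESeq2, HTSeq, TopHat and CASAVA 1.8.2 were used with build mm9; roles and order are not given. Between 5 and 50 steps, 63.1% to 68.9% of values were whole multiples of a library's step within 0.05, so whole reads were not recovered and count tests were not run. Depth is the deposited total divided by the step.

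Values were tested as log2(value + 1) for the 15002 genes averaging at least 10, with limma 3.58.1 (R 4.3.3), trended variances, and all 9 libraries in 1 fit. Two-sided p-values were adjusted by Benjamini-Hochberg over all tested genes within a comparison, and adjusted p below 0.05 counted as passing. Fold changes on this scale understate those of low genes. The fit was tested on simulated data with 200 genes changed. It recovered 61.2% to 65.7% of 1.5-fold changes and 86.4% to 97% of 4-fold changes over 3 simulated sets, 1 per comparison. The sets shared gene levels and spreads and differed in the random draw and the group changed. False calls made up 1.85% to 7.32% of calls. A member that did not pass can therefore still differ by a small amount. Lengths came from GENCODE M21 exons, and coding sequences were aligned with Biopython 1.88. Ratios were tested by exact permutation in scipy 1.17.1.

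The members and lists were chosen with earlier results of these data known. Named beyond the members were up to 3 passing genes per list and comparison with the smallest adjusted p, the genes on the list of other thioesterases, and the 3 nearest profiles of each passing member. A few further genes, such as those making up counts of 5 or fewer, were named after their values were seen. Alternatives were other pseudocounts, filters and scalings, fits of 2 groups, a replicate block, robust variances, paralog sums, and leaving out libraries. The peroxisomal list is not reported here as a count.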

Additional observations from a re-analysis of the deposited data

How the results depend on the processing

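Of 462 values of single members under alternatives, 421 kept their direction and their side of the threshold, 22 lost the threshold, 2 gained it and 17 changed sign. Most of the 462 belong to values that had not passed and had no call to lose. All 22 losses were of Acot2, Acot7 or Acot9. In OA vs MDI these passed in 11 of 20, 16 of 19 and 14 of 20 alternatives, and in OA_T0 vs OA in 20 of 20, 16 of 19 and 19 of 20. Between OA_T0 and MDI no member was called under any alternative. In OA vs MDI the members called numbered 0 to 3 with 1 library left out (0 to 1 higher, 0 to 2 lower), and in OA_T0 vs OA 2 to 4 (2 to 3 higher, 0 to 1 lower). With no filter on low values, OA vs MDI called 0 members (0 higher, 0 lower) and OA_T0 vs OA 0 lower. With OA_T0 replicate 3 and OA replicate 1 both left out, OA vs MDI had 1 lower, and OA_T0 vs OA 1 called, 1 higher and 0 lower. The cause was not tested.

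Sign changes of values that had not passed, other than with 1 library left out, were these. Acot1 took -0.22 in OA vs MDI when summed with Acot2, and -0.00606 in OA_T0 vs OA with equal totals. In OA_T0 vs MDI, Acot9 took -0.00904 with equal totals and -0.0057 with both libraries out, and Acot8 -0.0335 with both out. With 1 library left out, log2 fold changes that could change sign spanned, in OA vs MDI, -0.0536 to 0.472 for Acot11 and -0.0949 to 0.125 for Acot13, in OA_T0 vs OA -0.0844 to 0.155 for Acot1, and in OA_T0 vs MDI -0.0335 to 0.104 for Acot8, -0.0354 to 0.0749 for Acot9 and -0.0154 to 0.164 for Them4.

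Genes called over the whole table, higher and lower, were 188 and 204 for OA_T0 vs MDI, 1240 and 1026 for OA_T0 vs OA, and 514 and 504 for OA vs MDI. With no filter they were 72 and 38 for OA_T0 vs MDI, 620 lower for OA_T0 vs OA, and 233 and 234 for OA vs MDI. With both libraries out OA_T0 vs OA had 524 and 400, and robust variances gave 132 lower in OA_T0 vs MDI. Leaving out 1 library gave 66 to 283 and 45 to 247 for OA_T0 vs MDI, 580 to 1443 and 474 to 1239 for OA_T0 vs OA, and 214 to 660 and 155 to 642 for OA vs MDI. Scaling moved the median gene by at most 0.0347 (log2).

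No pairing by replicate number was seen: same-numbered libraries had deviations correlated at -0.256 to 0.259, and 1 of 9 libraries correlated best with its own number. Deviations from means of 3 libraries cannot exclude such pairing. With the replicate block 1 member was lower in OA vs MDI, Acot9, and Acot2 had adjusted p = 0.0741. The block also ended the OA vs MDI calls of Ppt2, Pank1 and Acot10 (adjusted p = 0.0508 for Acot10).

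By longest transcript, levels per kb were 1352 for Acot9, 1235 for Acot7, 109.9 for Acot1, 106.9 for Them4 and 100.1 for Acot8, so Them4 and Acot8 changed places. The log2 ratio of Acot2 to Acot1, with 1 library left out, differed by 0.02 to 0.25 for OA_T0 vs MDI, 0.46 to 0.75 for OA_T0 vs OA and -0.61 to -0.33 for OA vs MDI. Depth limits Acot11 most.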
